A study of Mus musculus with 11 samples.

Results

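Regulatory T cells are CD4 T cells that restrain other immune cells, and the 10 genes described here belong to their core programme: Foxp3, Ikzf2, Ikzf4, Il2ra, Ctla4, Lrrc32, Gpr83, Izumo1r, Itgae and Capg. They were taken by name, as the rows of the count table whose Ensembl identifier carries one of these symbols in GENCODE M21, and make up 10 of 56748 genes. The names were chosen with earlier results of these data known, so comparisons of the members with all genes are descriptive. All 10 passed the filter on low counts that left 17987 genes to test. RNA was sequenced from liver CD4 T cells of mice with fibrosis after 5 weeks of carbon tetrachloride (CCl4), a hepatocyte toxin given to both genotypes. The 6 Atg5-deficient libraries have the genotype ATG5TLymph-/-, a loss of Atg5 in T lymphocytes. ATG5 is part of the conjugation machinery that builds autophagosomes. The 5 wild-type libraries are labelled wildtype and carry, by the series design, the floxed alleles ATG5fl/fl. The sources used here do not give the Cre driver, the age and sex of the mice or any pooling. The design text describes sorting on a flow cytometer, while the sample protocol describes sections of fixed, embedded blocks.

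FOXP3 is a forkhead transcription factor that establishes and maintains the regulatory T cell state. It acts with partner factors, among them the Ikaros family members Helios (Ikzf2) and Eos (Ikzf4). On the surface, regulatory T cells carry the high-affinity IL-2 receptor chain CD25 (Il2ra), the inhibitory receptor CTLA-4, which competes with CD28 for its ligands, and GARP (Lrrc32), which holds latent TGF-beta. GPR83 is a G protein-coupled receptor, and the folate receptor FR4 (Izumo1r) marks regulatory and also anergic or follicular CD4 T cells. The integrin chain CD103 (Itgae) binds E-cadherin on epithelium, and CAPG caps actin filaments. Activated conventional T cells also express several of these genes, Il2ra and Ctla4 among them.

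Libraries held 30699408 to 47564440 counted reads, so that 3 counts correspond to 0.0631 to 0.0977 CPM (counts scaled to library size). The defining marker Cd4 was present in all libraries (827 ± 145 CPM, SD, n = 6, with the deletion, and 668 ± 35.8 CPM, SD, n = 5, without it). Atg5 reads stood at 19.2 ± 2.51 and 16.9 ± 3.59 CPM (log2 fold change 0.18, SE 0.14, adjusted p = 0.488, edgeR), and since the deleted exons are not given, this does not check the genotypes. Whether each library is a mouse of its own is not stated, and the p-values cover only the spread between these libraries. In these bulk libraries, more regulatory T cells and more RNA per cell cannot be told apart. Libraries are named by genotype and a number that pairs nothing.

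Upstream sequences were looked up in the RefSeq table for GRCm38.p6, which holds 6 of the 10 genes. Shown are the 250 bases before the annotated start of Foxp3 itself, of Il2ra and Ctla4, which encode the surface molecules CD25 and CTLA-4, and of Gpr83, whose genotype difference had the other sign. Foxp3 lies at chrX:7579426-7579675, Il2ra at chr2:11642542-11642791, Ctla4 at chr1:60908775-60909024 and Gpr83 at chr9:14859960-14860209, all on the plus strand. Capitals mark the forkhead core AAACA or its reverse complement TGTTT, searched on both strands, and TATAAA on the gene's strand.
Foxp3: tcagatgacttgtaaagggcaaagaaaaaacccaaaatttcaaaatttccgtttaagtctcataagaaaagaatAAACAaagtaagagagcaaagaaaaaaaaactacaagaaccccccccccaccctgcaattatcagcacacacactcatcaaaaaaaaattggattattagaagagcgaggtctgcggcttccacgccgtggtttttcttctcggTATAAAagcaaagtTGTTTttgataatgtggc
Il2ra: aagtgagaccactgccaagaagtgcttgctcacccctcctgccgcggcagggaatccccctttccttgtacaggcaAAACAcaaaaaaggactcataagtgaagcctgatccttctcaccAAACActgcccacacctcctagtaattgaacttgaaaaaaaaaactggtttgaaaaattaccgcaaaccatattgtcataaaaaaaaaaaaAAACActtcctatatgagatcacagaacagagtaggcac
Ctla4: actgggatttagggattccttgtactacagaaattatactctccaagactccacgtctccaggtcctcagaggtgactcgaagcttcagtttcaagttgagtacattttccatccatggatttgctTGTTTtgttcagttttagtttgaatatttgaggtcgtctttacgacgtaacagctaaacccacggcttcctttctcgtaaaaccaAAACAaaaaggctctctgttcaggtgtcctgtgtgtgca
Gpr83: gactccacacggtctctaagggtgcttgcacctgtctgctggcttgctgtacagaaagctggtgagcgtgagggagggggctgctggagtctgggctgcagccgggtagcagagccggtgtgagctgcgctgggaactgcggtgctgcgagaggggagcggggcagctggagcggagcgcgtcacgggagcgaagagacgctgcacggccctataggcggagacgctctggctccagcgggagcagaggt
The forkhead core occurs 2 times before Foxp3, 3 times before Il2ra, 2 times before Ctla4 and 0 times before Gpr83. It occurs in 46.4% of the 32851 promoters of the table, so its presence sets none of these genes apart. Of these 4 stretches, only that of Foxp3 holds TATAAA, which 7.59% of promoters hold. The Gpr83 stretch has a GC content of 66.8%, against 37.6% for Foxp3, 42.4% for Il2ra and Ctla4 and a median of 52.4% over all promoters. Among the members not shown, Capg, which had a positive log2 fold change, also has 0 forkhead cores, with a GC content of 57.6%. Izumo1r has 1 forkhead core and a GC content of 50%. The stretches shown thus do not set Gpr83 apart from members with a positive log2 fold change. Foxp3 has another annotated start in the table (chrX:7580233-7580482), whose upstream stretch holds the forkhead core 1 time. A match is a run of letters and no evidence of binding.

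The comparison of the genotypes asks how the regulatory T cell core differs when T lymphocytes lack Atg5. Foxp3 rose 1.75-fold, Ikzf2 1.70-fold, Itgae 2.44-fold and Capg 1.75-fold in Atg5-deficient libraries, and 0 members fell past the threshold (edgeR quasi-likelihood test, adjusted p under 0.05 over 17987 genes). Of all genes tested, 4.43% were called higher, 2.41% lower and 6.84% in either direction. An unadjusted p under 0.05 was found for 9 of the 10 members and for 23.4% of all genes. In all, 9 of the 10 members had a positive log2 fold change, with a median of 0.79 over the 10, against -0.00 over all genes tested. When scaled to pan-T cell genes 8 were positive, and Izumo1r was at -0.018. The ranges of the 2 genotypes did not overlap for Foxp3 and Ikzf2, as for 2.78% of all genes in that direction, 2.08% in the other and 4.86% in either. Gpr83 was the only member with a negative log2 fold change.

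**Figure D1:**
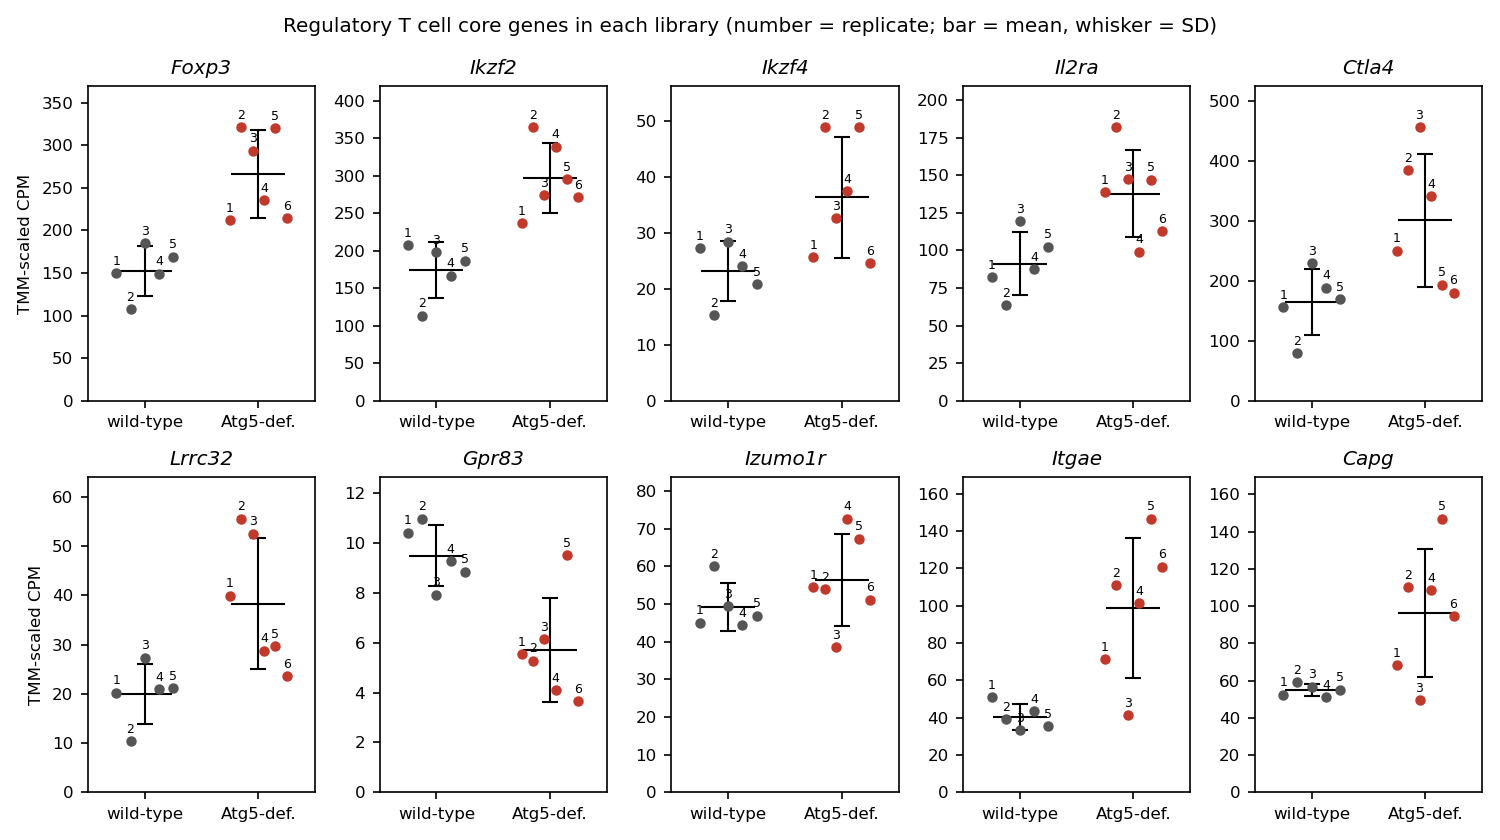
CPM (scaled by TMM factors) of the 10 genes in each of 5 wild-type (grey) and 6 Atg5-deficient (red) libraries, with the replicate number beside each point, the mean as a bar and the SD as whiskers. Foxp3 and Ikzf2 separate the genotypes fully, while Itgae and Capg are high in all Atg5-deficient libraries but replicate 3.

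Among the transcription factors, Foxp3 (ENSMUSG00000039521, chromosome X, 7573644 to 7595245, plus strand, GRCm38) stood at 212, 321, 294, 235, 320 and 215 CPM in Atg5-deficient libraries 1 to 6. The wild-type libraries 1 to 5 had 150, 108, 185, 149 and 169 CPM. Every Atg5-deficient library lay above the highest wild-type library, and wild-type 2 was the lowest of all. The means were 266 ± 51.3 CPM (SD, n = 6) and 152 ± 29.1 CPM (SD, n = 5), with a log2 fold change of 0.81 (SE 0.15, edgeR, adjusted p = 0.00971). It passed in each of the 11 fits with 1 library removed, with log2 fold changes of 0.71 to 0.89.

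Foxp3 shares exon bases with 4 other annotated genes. Flicr, a noncoding gene annotated as antisense but listed on the same strand, shares 853 bases, and its count was 8.34% of that of Foxp3. Ccdc22, Gm36995 and Ppp1r3f lie on the other strand and share 590, 373 and 266 bases, with 13.1%, 17.8% and 7.83% of the Foxp3 count. The sources used here do not give the strand setting of the counting, so reads on shared bases cannot be told apart. With the Flicr count subtracted, the log2 fold change of Foxp3 was 0.82 (edgeR, adjusted p = 0.00971). Subtracting the whole counts of all 4 genes takes 47.05% off the Foxp3 count, whether or not those reads lie on shared bases. The log2 fold change of Foxp3 was then 1.88 (SE 0.50) and missed the threshold (edgeR, adjusted p = 0.0519), with 194 counts left in the lowest library. How much of the Foxp3 count is shared cannot be read from this subtraction.

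Ikzf2 (ENSMUSG00000025997, chromosome 1, 69531214 to 69687245, minus strand), which encodes Helios, was counted at 237, 365, 274, 339, 296 and 272 CPM in Atg5-deficient libraries 1 to 6. Wild-type libraries 1 to 5 had 207, 113, 198, 167 and 187 CPM, so the groups did not overlap, and wild-type 2 was again the lowest. The log2 fold change was 0.77 (SE 0.15, edgeR, adjusted p = 0.0108), and it too passed in each of the 11 fits with 1 library removed. Ikzf4 (ENSMUSG00000002578, chromosome 10, 128630843 to 128645991, minus strand), which encodes Eos, was counted at 25.6, 48.8, 32.6, 37.4, 48.8 and 24.6 CPM in the Atg5-deficient libraries. In wild-type it stood at 27.2, 15.3, 28.4, 24.1 and 20.8 CPM. Atg5-deficient 1 and 6 lay within the wild-type range and the other 4 above it, and the log2 fold change of 0.65 (SE 0.21) did not pass (edgeR, adjusted p = 0.0795). Without Atg5-deficient 6 it did (edgeR, adjusted p = 0.0451).

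Of the surface molecules tied to FOXP3 function, Il2ra, Ctla4 and Lrrc32 had log2 fold changes of 0.60 to 0.93 without passing the test. Il2ra (ENSMUSG00000026770, chromosome 2, 11642807 to 11693193, plus strand), the CD25 gene, had 139, 182, 147, 99.3, 147 and 113 CPM in Atg5-deficient libraries 1 to 6. Its wild-type values were 82.2, 63.8, 119, 87.7 and 103 CPM, and 4 of 6 Atg5-deficient libraries lay above all of them. The log2 fold change was 0.60 (SE 0.17, edgeR, adjusted p = 0.0517). It passed without Atg5-deficient 4, without Atg5-deficient 6 and without wild-type 3, where the adjusted p fell to 0.0303 at the lowest (edgeR).

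Ctla4 (ENSMUSG00000026011, chromosome 1, 60887000 to 60915832, plus strand) varied widely, with 251, 384, 457, 341, 194 and 181 CPM in Atg5-deficient libraries. The wild-type libraries had 156, 80.0, 230, 189 and 169 CPM. Atg5-deficient 5 and 6 lay inside the wild-type range, and the log2 fold change of 0.87 (SE 0.30) did not pass in the full fit (edgeR, adjusted p = 0.107) or in any fit without 1 library. Lrrc32 (ENSMUSG00000090958, chromosome 7, 98489283 to 98502181, plus strand), the GARP gene, stood at 39.9, 55.6, 52.6, 28.8, 29.6 and 23.6 CPM against 20.3, 10.4, 27.4, 20.96 and 21.2 CPM. In 5 of 6 Atg5-deficient libraries it exceeded every wild-type library. Its log2 fold change of 0.93 (SE 0.27) missed the threshold (edgeR, adjusted p = 0.0573), and passed without Atg5-deficient 6 (edgeR, adjusted p = 0.0336).

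Gpr83 and Izumo1r lie side by side on chromosome 9, at 14860210 to 14870789 on the plus strand and 14885814 to 14903949 on the minus strand, and had the lowest log2 fold changes of the members. Gpr83 (ENSMUSG00000031932) was the least abundant member, with 5.54, 5.28, 6.13, 4.08, 9.50 and 3.65 CPM in Atg5-deficient libraries, from 139 to 385 counts. The wild-type libraries had 10.4, 10.97, 7.92, 9.27 and 8.84 CPM, and 5 of 6 Atg5-deficient libraries lay below all of them. Its log2 fold change was -0.73 (SE 0.22, edgeR, adjusted p = 0.0573). The exception was Atg5-deficient 5, and without it the log2 fold change was -0.94 (edgeR, adjusted p = 0.0123). The call was also made without Atg5-deficient 3. Izumo1r (ENSMUSG00000031933), the FR4 gene, had 54.5, 54.0, 38.6, 72.7, 67.4 and 51.1 CPM against 45.0, 60.1, 49.4, 44.3 and 46.9 CPM. The groups overlapped widely, with a log2 fold change of 0.20 (SE 0.14, edgeR, adjusted p = 0.436).

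Itgae and Capg shared another pattern over the libraries. Itgae (ENSMUSG00000005947, chromosome 11, 73090583 to 73147446, plus strand), the CD103 gene, stood at 71.4, 111, 41.5, 101, 147 and 121 CPM in Atg5-deficient libraries 1 to 6. Wild-type libraries had 50.9, 39.1, 33.4, 43.5 and 35.3 CPM. Only Atg5-deficient 3 fell inside the wild-type range. The log2 fold change of 1.29 (SE 0.27, edgeR, adjusted p = 0.0188) was the largest of the members, and its call was lost without wild-type 5 (edgeR, adjusted p = 0.0504). Haspin lies within the span of Itgae on the other strand, shares 0 exon bases with it and had 9.83% of its count.

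Capg (ENSMUSG00000056737, chromosome 6, 72544391 to 72562983, plus strand) had 68.2, 110, 49.5, 109, 147 and 94.5 CPM in Atg5-deficient libraries. Its wild-type values were close together, at 52.4, 59.3, 56.8, 51.2 and 55.1 CPM. Atg5-deficient 3 had the lowest Capg value of all 11 libraries, and the other 5 lay above every wild-type library. The log2 fold change was 0.81 (SE 0.22, edgeR, adjusted p = 0.0473). This call was lost without Atg5-deficient 2, 4, 5 or 6 and without each of the 5 wild-type libraries, with adjusted p up to 0.100 (edgeR). Without Atg5-deficient 3 the log2 fold change was 0.94 (edgeR, adjusted p = 0.00315).

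The calls of the members changed with the libraries, the scaling, the filter and the tool. In the 8 libraries whose title numbers are consecutive, 5 of them Atg5-deficient and 3 wild-type, 0 members and 176 genes were called, with log2 fold changes of 0.91 for Foxp3 (edgeR, adjusted p = 0.0534) and 0.92 for Ikzf2 (edgeR, adjusted p = 0.0520). Scaling to the summed count of pan-T cell genes shifted the median log2 fold change of all genes to -0.19, and Foxp3 went to 0.62 (edgeR, adjusted p = 0.0579), or 0.81 above that median. Under that scaling Itgae stayed called (1.05), Gpr83 was called lower (-0.92) and Ikzf2 (0.56) and Capg (0.58) were not called. With the summed level of cell cycle genes as a covariate 0 members were called, with 0.95 for Foxp3 (edgeR, adjusted p = 0.0747), 0.75 for Ikzf2, 0.06 for Itgae and -0.06 for Capg. Of the Atg5-deficient libraries only replicate 3 lay within the wild-type range of that sum, so the fit hardly separates it from genotype. Upper-quartile factors lost the call of Capg (0.73, edgeR, adjusted p = 0.0514) and called Gpr83 lower (-0.81, edgeR, adjusted p = 0.0352). A filter of at least 1 CPM in 5 libraries also called Gpr83 (edgeR, adjusted p = 0.0462). With no low-count filter Gpr83 was called, and Itgae and Capg were not. DESeq2 called 9 members, all but Izumo1r, and 2333 genes in all. Limma-voom called 8, all but Izumo1r and Ikzf4, and 3382 genes in all. Both tools thus called more genes than the main fit, which called 1231.

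Per kilobase of exon (TMM-scaled RPKM), Ctla4 was the most abundant member in wild-type libraries at 70.7 ± 23.6 (SD, n = 5), and Foxp3 followed at 33.3 ± 6.35 RPKM. Capg (21.7), Izumo1r (21.2), Il2ra (15.96) and Ikzf2 (15.0) came next in mean wild-type RPKM. Itgae had 8.83, Lrrc32 4.28, Ikzf4 3.86 and Gpr83 1.86 RPKM. Neighbours in this order overlapped in their wild-type ranges, except for Foxp3 and Capg, Itgae and Lrrc32, and Ikzf4 and Gpr83. The lowest wild-type value of Foxp3, 23.53 RPKM, lay just above the highest of Capg, 23.45 RPKM. In Atg5-deficient libraries Ctla4 (129 ± 47.5 RPKM, SD, n = 6) and Foxp3 (58.1 ± 11.2 RPKM, SD, n = 6) again had the highest means and Gpr83 (1.12 ± 0.408 RPKM, SD, n = 6) the lowest. Ikzf2, at 25.6 RPKM, stood above Izumo1r (24.3) and Il2ra (24.1) in the mean there, with overlapping ranges.

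To see which members changed in proportion to Foxp3, each count was divided by the Foxp3 count of its library. For 7 of the 9 other members the genotype difference in this ratio did not pass the threshold. Helios per Foxp3 read was nearly level, with Ikzf2 ratios of 0.926 to 1.44 in Atg5-deficient and 1.05 to 1.38 in wild-type libraries. The log2 ratio of Ikzf2 differed by -0.02 (95% interval -0.31 to 0.27, exact permutation test, two-sided, p = 0.870). The differences were -0.18 for Ikzf4 (interval -0.50 to 0.14), -0.20 for Il2ra (-0.44 to 0.04), 0.06 for Ctla4 (-0.56 to 0.63) and 0.12 for Lrrc32 (-0.41 to 0.61). For Itgae the interval reached from -0.47 to 1.14 around 0.39, and for Capg from -0.76 to 0.50 around -0.08. These intervals allow changes of ratio in either direction, and a missed threshold does not show that the ratio stayed the same. Without Atg5-deficient 1 the Il2ra ratio passed (-0.27, exact permutation, adjusted p = 0.0308).

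Gpr83 per Foxp3 read was lower in every Atg5-deficient library, at 0.0165 to 0.0298 against 0.0428 to 0.102 in wild-type libraries. The log2 ratio differed by -1.60 (95% interval -2.17 to -1.04, exact permutation test, p = 0.00216, the smallest that 462 splits allow, adjusted p = 0.0105 over all genes). It passed in all 11 fits without 1 library, but not among the 8 libraries with consecutive titles (-1.59, exact permutation, adjusted p = 0.05004). With 5 against 3 libraries the smallest exact permutation p is 0.0179 before adjustment, so a miss there does not show that the difference was lost. Izumo1r per Foxp3 read ran from 0.131 to 0.309 in Atg5-deficient and 0.267 to 0.558 in wild-type libraries. Its difference of -0.63 (95% interval -1.24 to -0.06, exact permutation test, p = 0.0303, adjusted p = 0.0499) passed only narrowly. It was lost in 10 of the 11 fits without 1 library, all but that without Atg5-deficient 4, and was smallest without wild-type 2 (-0.44, exact permutation, adjusted p = 0.128). Because Foxp3 itself differs between the genotypes, most genes shift in this measure: the median over all genes was -0.83, 60.7% of genes passed and 33.5% had lower, separate ranges. At an unadjusted p under 0.05, 66.3% of genes were lower and 0.122% higher. Against that background, the Izumo1r shift is smaller than that of the median gene, and that of Gpr83 is larger.

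**Figure D2:**
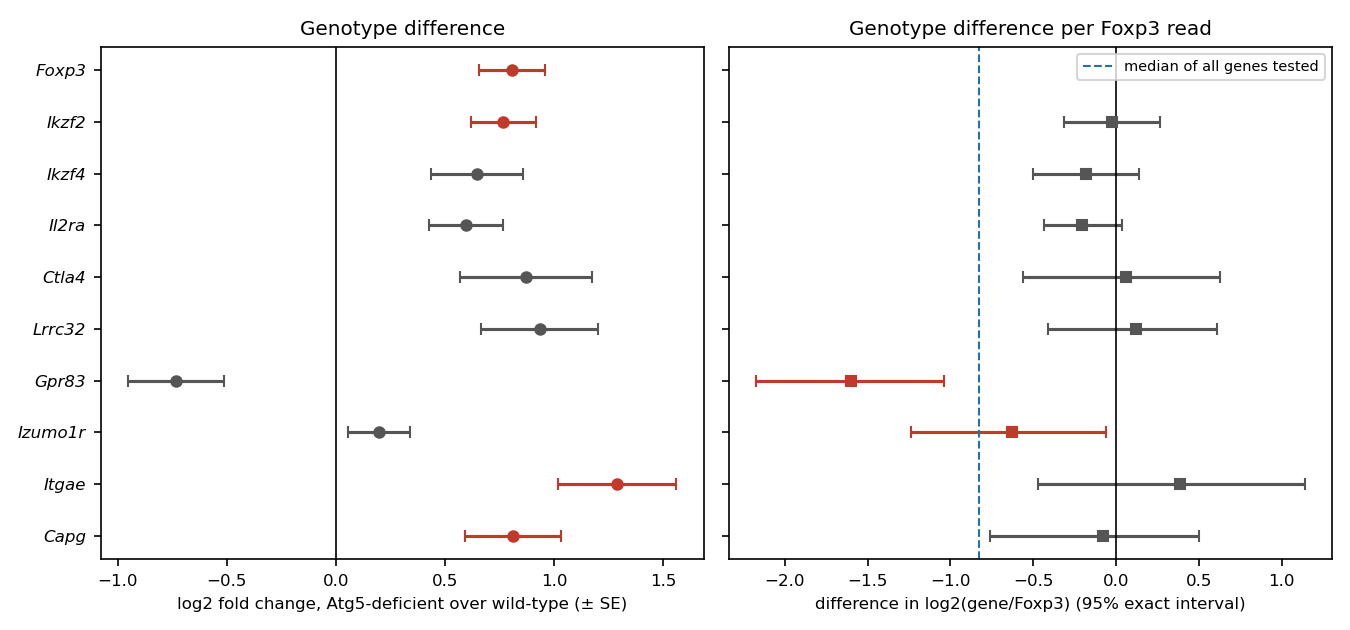
Left, log2 fold change of each gene between Atg5-deficient and wild-type libraries with its standard error, in red where the adjusted p (edgeR) was under 0.05. Right, genotype difference of the log2 ratio of each gene to Foxp3 with its 95% interval, red where the adjusted p of the exact permutation test was under 0.05; the dashed line is the median of all genes at -0.83, and Gpr83 lies to its left at -1.60.

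Whether the members vary with Foxp3 among libraries of one genotype was tested on deviations of log2 CPM from the genotype mean over the 11 libraries. For 5 of 9 members r had an exact permutation p under 0.05 within genotype, all 5 positive, and 4 had one for rho, whereas 3.54% of all genes had one for r and 2.20% a positive r with one. After adjustment over 17986 genes 0 passed, members included (adjusted p = 0.9998 for each member, exact permutation). Il2ra (r = 0.84, p = 0.00326; rho = 0.85, p = 0.00282, exact permutation) and Ikzf4 (r = 0.84, p = 0.00586; rho = 0.80, p = 0.00853, exact permutation) had the highest r with Foxp3, unadjusted. Only 0.106% and 0.111% of genes had an r at least as high. Lrrc32 (r = 0.74, p = 0.0222; rho = 0.69, p = 0.0320, exact permutation) and Ikzf2 (r = 0.73, p = 0.0265; rho = 0.75, p = 0.0169, exact permutation) followed. Ctla4 had r = 0.64 (p = 0.0497, exact permutation) and rho = 0.63 (p = 0.0580, exact permutation).

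The other 4 members had no exact permutation p under 0.05. The coefficients were r = 0.27 for Gpr83 (p = 0.467; rho = -0.05, p = 0.885, exact permutation) and r = 0.16 for Capg (p = 0.660; rho = 0.22, p = 0.508, exact permutation). Itgae had r = -0.03 (p = 0.946; rho = 0.05, p = 0.881, exact permutation) and Izumo1r r = -0.26 (p = 0.462; rho = -0.11, p = 0.763, exact permutation). For Itgae and Izumo1r, 56.1% and 81.5% of all genes had an r at least as high.

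The 2 libraries farthest out in Foxp3 were wild-type 2, with the least Foxp3, and wild-type 3, with the most in its genotype. Leaving them out keeps 9 libraries and narrows the range of Foxp3. A weaker r and a larger p can follow from that alone. Without both, 0 of 9 members had an exact permutation p under 0.05. The r was then 0.76 for Ikzf4 (p = 0.0880, exact permutation), 0.73 for Il2ra (p = 0.0667, exact permutation), 0.52 for Lrrc32, 0.49 for Ikzf2 and 0.35 for Ctla4. Gpr83, at 0.27 over all libraries, reached r = 0.64 without them (p = 0.170, exact permutation), above Lrrc32, Ikzf2 and Ctla4. Within the 6 Atg5-deficient libraries alone, 0 of 9 passed too, with r = 0.87 for Ikzf4 (p = 0.0667, exact permutation) and r = 0.72 for Il2ra (p = 0.119, exact permutation). There Gpr83 had r = 0.69 (p = 0.156, exact permutation), Ikzf2 0.54, Lrrc32 0.53 and Ctla4 0.37. The p of Il2ra and Ikzf4 stayed under 0.05 when any 1 library was left out. That of Lrrc32 was lost without wild-type 2 (r = 0.57), and that of Ikzf2 without wild-type 2 (r = 0.50) or Atg5-deficient 1 or 2 (r = 0.68 each). Ctla4 kept it only without Atg5-deficient 1 or 5. Among the 8 libraries with consecutive titles it held for Ikzf4 (r = 0.89) and Il2ra (r = 0.82).

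**Figure D3:**
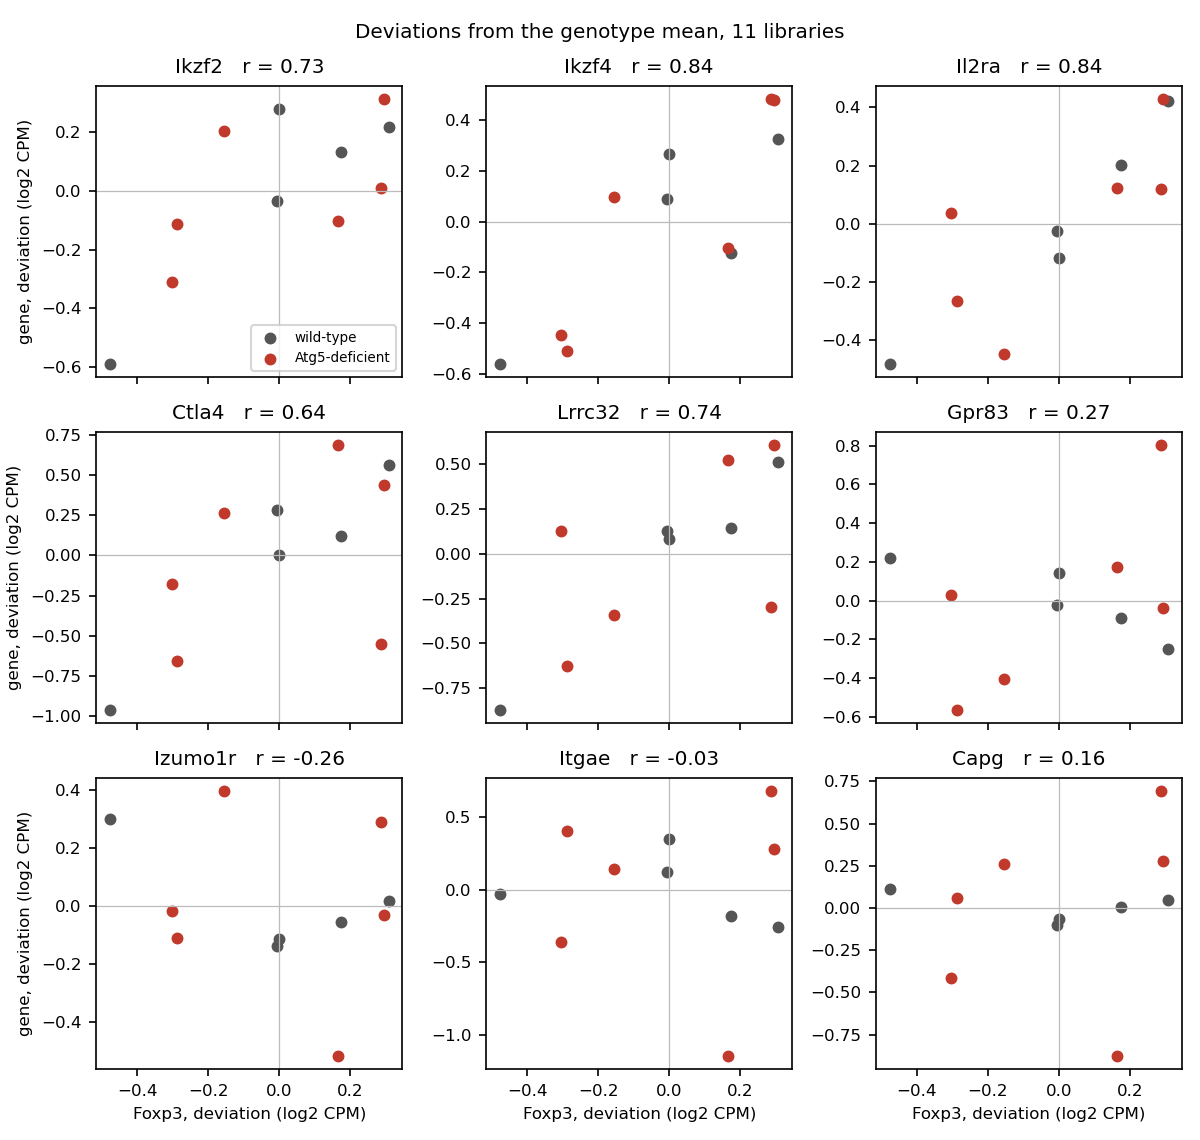
Deviation of each gene from its genotype mean against that of Foxp3, both in log2 CPM, in 5 wild-type (grey) and 6 Atg5-deficient (red) libraries, with Pearson r above each panel. Ikzf4 and Il2ra have r = 0.84 each, with wild-type 2 at the lower left, and Itgae has r = -0.03.

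The same question was put to the counts in a model with genotype and Foxp3 level. The Foxp3 coefficient, in log2 units of the gene per log2 unit of Foxp3, was 1.18 for Ikzf4 (SE 0.25), 0.94 for Il2ra (SE 0.20), 0.71 for Ikzf2 (SE 0.23), 1.30 for Lrrc32 (SE 0.37) and 1.32 for Ctla4 (SE 0.47). These 5 of 9 had an unadjusted p under 0.05 (edgeR), against 2.72% of all genes (1.76% with a positive coefficient), and 0 genes passed after adjustment. For Capg (0.30), Gpr83 (0.37), Itgae (0.07) and Izumo1r (-0.23) it was smaller than its standard error. At a given Foxp3 level, the genotype term was a log2 difference of 1.23 for Itgae (SE 0.52, unadjusted p = 0.0371, edgeR) and -1.06 for Gpr83 (SE 0.43, unadjusted p = 0.0286, edgeR). Foxp3 ran from 212 to 321 CPM in Atg5-deficient and from 108 to 185 CPM in wild-type libraries. No level was thus shared, and this term extrapolates the slope found within genotypes. An unadjusted p under 0.05 for that term was found for 8.58% of genes, and after adjustment 1 gene passed (0.00556%), which was no member. For these 5 genes, the genotype difference at a given Foxp3 level lay between -0.32 (Ikzf4) and 0.21 (Ikzf2).

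Among the members themselves 45 pairs were compared and 0 passed after adjustment over the pairs, so r values are given as a description. Ctla4 and Lrrc32 had r = 0.88, Il2ra and Lrrc32 0.85, and Ikzf2 and Ikzf4 0.80. Itgae and Capg had r = 0.87, Izumo1r and Capg 0.79, and Izumo1r and Itgae 0.59. Without the 2 libraries farthest out in the first gene of a pair, Ctla4 with Lrrc32 had r = 0.71, Il2ra with Lrrc32 0.77 and Ikzf2 with Ikzf4 0.64. Ikzf4 with Ctla4 went from 0.52 to -0.03, Ikzf4 with Lrrc32 from 0.54 to 0.00031 and Ikzf2 with Il2ra from 0.50 to 0.21, all without wild-type 2. Itgae with Capg fell to 0.48, Izumo1r with Capg to 0.60 and Izumo1r with Itgae to 0.13, all without Atg5-deficient 3.

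**Figure D4:**
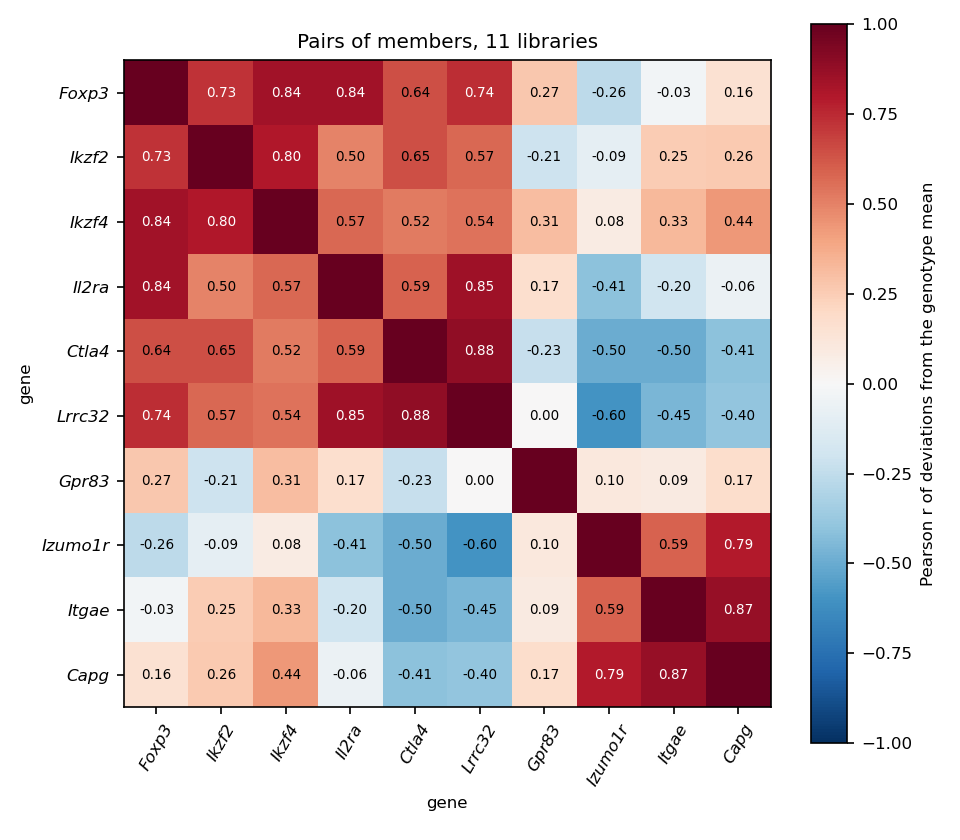
Pearson r between each pair of the 10 genes over deviations from the genotype mean in 11 libraries (red positive, blue negative, log2 CPM). Values among Foxp3, Ikzf2, Ikzf4, Il2ra, Ctla4 and Lrrc32 are all positive, as are those among Izumo1r, Itgae and Capg (0.87 for Itgae and Capg); several fall without 2 libraries.

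The members were also set beside the cell cycle genes. The summed level of 15 cell cycle genes was 433 CPM in Atg5-deficient 3 and 767 to 971 CPM in the other Atg5-deficient libraries, against 341 to 474 CPM in wild-type libraries. Within genotype, that sum had r = 0.83 with Itgae (p = 0.0211; rho = 0.58, p = 0.0962, exact permutation) and 0.73 with Capg (p = 0.0566; rho = 0.58, p = 0.104, exact permutation). For Ctla4 it was r = -0.59 (p = 0.0365; rho = -0.58, p = 0.0700, exact permutation) and for Izumo1r 0.55 (p = 0.190; rho = 0.19, p = 0.593, exact permutation). Over the 10 members 0 passed after adjustment. Within genotype, Atg5-deficient 3 and wild-type 3 lay farthest out in that sum. Without them r was 0.28 for Itgae, 0.31 for Capg, -0.30 for Ctla4 and -0.34 for Izumo1r. Leaving them out narrows the range of the sum, and a weaker r can follow from that alone. How far these relations rest on those libraries can thus not be told. Foxp3 had r = -0.23 with the cell cycle sum (p = 0.633; rho = -0.10, p = 0.772, exact permutation). This turned to r = 0.31 without Atg5-deficient 3 and wild-type 3. The part of proliferation in the differences of Itgae and Capg was not tested beyond the covariate fit above.

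The genes most like Foxp3 over the 11 libraries, among protein-coding genes of at least 5 CPM outside the members, were Myo1e, a class I myosin (r = 0.91), and Kifap3, a kinesin adaptor (r = 0.91). Nol4l (0.88), Bmpr2, the type II receptor for bone morphogenetic proteins (0.87), Tspan13, Elavl1, Zfp36l1 and Ppp1r3b followed (0.87 each). Myo1e was also called higher in Atg5-deficient libraries, at 45.8 ± 10.7 CPM (SD, n = 6) against 27.1 ± 6.65 CPM (SD, n = 5), with a log2 fold change of 0.75 (SE 0.18, edgeR, adjusted p = 0.0283). The other 7 were not called, and their log2 fold changes ran from -0.21 (Ppp1r3b) to 0.58 (Nol4l). Flicr, whose exons overlap those of Foxp3, had r = 0.81 and rose by a log2 value of 0.69 (SE 0.16, edgeR, adjusted p = 0.0231).

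Lists of genes from the same pathway, each with the members that belong to it, are given by counts beside the 4.43% of all genes called higher and 2.41% called lower. These shares hold for the main fit, with 797 genes higher and 434 lower. Scaled to pan-T cell genes, 300 of all genes were higher and 875 lower, with a median log2 fold change of -0.19. With upper-quartile factors 584 were higher and 685 lower, with a median of -0.07. List counts and medians under those scalings are to be read beside these values. The lists too were chosen with earlier results of these data known, so these counts are descriptive. Among 18 transcription factors and partners of regulatory T cells, 6 rose, 2 fell and 10 did not pass, with a median log2 fold change of 0.34. Beside Foxp3 and Ikzf2, Prdm1, which encodes Blimp-1 (1.10, SE 0.21), Ezh2, a histone methyltransferase (0.55, SE 0.10), and Gata3 (0.47, SE 0.10) rose, and Myb fell (-0.54, SE 0.12). Of the 5 Ikaros family genes 2 rose, Ikzf2 and Ikzf3, which encodes Aiolos (0.51, SE 0.10), while Ikzf1 had a log2 fold change of -0.26 (edgeR, adjusted p = 0.0913). In the forkhead P family Foxp3 rose, Foxp1 fell (-0.54, SE 0.12, edgeR, adjusted p = 0.0218) and Foxp4 did not pass (0.24). When scaled to pan-T cell genes, 2 of the 18 transcription factors rose and 2 fell, and 0 Ikaros genes rose and 1 fell.

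Suppressive effector genes had the highest median of the regulatory lists, 0.92 over 13 tested genes, of which 6 rose and 0 fell. They included Gzmb, a granzyme (1.59, SE 0.29), Lgals1, which encodes galectin-1 (1.16, SE 0.22), Ebi3, a subunit of IL-35 and IL-27 (1.27, SE 0.31), and Tnfrsf18, the GITR gene (0.69, SE 0.16). Gzmb is also a gene of cytotoxic T cells, and conventional T cells induce Lgals1 and Tnfrsf18 on activation. Among 22 genes of tissue and effector regulatory T cells 9 rose and 0 fell (median 0.83), Itgae, Rora (0.89, SE 0.15), Cxcr3 (1.04, SE 0.18) and Nrp1, which encodes neuropilin-1 (0.83, SE 0.16), among them. Rora is also expressed by helper T cells of the Th17 kind and Cxcr3 by those of the Th1 kind. Scaled to pan-T cell genes, 4 of the 13 effector genes and 3 of the 22 tissue genes rose. Over all genes, 300 rose under that scaling, against 797 in the main fit.

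The partners of the surface members differed from list to list. Around CD25, 3 of 14 genes of the IL-2 receptor and STAT5 pathway rose and 0 fell (median 0.28), namely Il2rb, the shared beta chain (0.69, SE 0.14), and the STAT5 targets Cish (0.56, SE 0.14) and Socs2 (1.09, SE 0.27), and 0 rose when scaled to pan-T cell genes. Around CTLA-4, 4 of 10 costimulation genes rose and 0 fell (median 0.80), with Icos (0.65, SE 0.11), Cd80, a ligand of CTLA-4 (1.18, SE 0.25), and Tnfrsf4, the OX40 gene (0.94, SE 0.22), and 2 of 10 rose when scaled to pan-T cell genes. Around GARP, 1 of 14 genes of latent TGF-beta and its receptors rose, Smad3 (0.43, SE 0.09), while Tgfb1 (0.25, edgeR, adjusted p = 0.0767) and the integrin chain gene Itgb8 (0.74, edgeR, adjusted p = 0.0803) did not pass. The median of that list was 0.06, -0.01 with upper-quartile factors and -0.13 when scaled to pan-T cell genes, where 0 of its genes rose.

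Of 8 integrin genes around CD103, 4 rose and 0 fell (median 0.48), Itgae with Itgb1 (0.81, SE 0.20), Itgal (0.51, SE 0.14) and Itga4 (0.40, SE 0.10). With upper-quartile factors 2 of the 8 rose, as when scaled to pan-T cell genes (median 0.27). Of 10 genes of actin capping and the gelsolin family, Capg, Flii (0.32, SE 0.09) and Capzb (0.40, SE 0.11) rose and 0 fell (median 0.20). With upper-quartile factors or scaling to pan-T cell genes, 0 of these 10 passed, and the median was -0.01 under the latter. Of 5 genes of the folate receptor family and Izumo, 2 passed the low-count filter and 0 were called. Of 11 genes usually lower in regulatory than in conventional CD4 T cells, 4 fell and 0 rose (median -0.56), namely Dapl1 (-1.13, SE 0.20), Actn1 (-0.84, SE 0.16), Lef1 (-0.68, SE 0.17) and Tcf7, which encodes TCF-1 (-0.56, SE 0.12). These 4 are also genes of naive T cells. Of 15 cell cycle genes 9 rose and 0 fell (median 1.30).

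**Figure D5:**
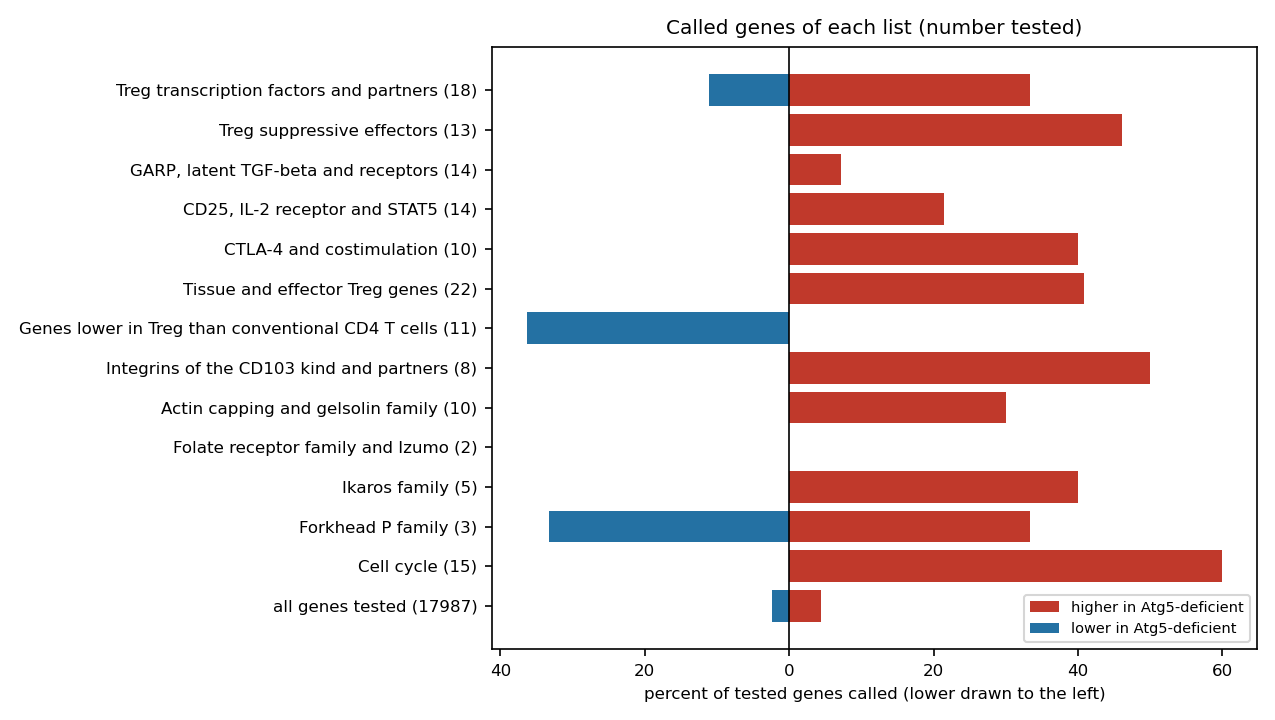
Percent of the tested genes of each list called higher (red, right) or lower (blue, left) in Atg5-deficient libraries, with the number tested in brackets and all 17987 genes in the bottom bar (4.43% and 2.41%). Lists that hold members are not independent of the member counts.

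Other cells that could bring in transcripts of the members were followed by 13 marker lists, summed per library and compared by exact permutation. After adjustment 0 of 13 passed, with 2 lists at an unadjusted p under 0.05, the pan-T cell list (p = 0.0368, exact permutation) and the dendritic cell list (p = 0.00866, adjusted p = 0.113, exact permutation). Pan-T cell markers summed to 3021 to 4478 CPM in Atg5-deficient and 2973 to 3378 CPM in wild-type libraries, and 1 of the 9 genes was called higher. Dendritic cell markers summed to 64.8 to 123 CPM in Atg5-deficient and 36.8 to 64.5 CPM in wild-type libraries, mostly from Cd74, and 2 of the 10 genes, Cd74 and Itgax, were called higher. Of the other listed markers Flt3, Xcr1, Clec9a, Siglech and Cd209a were at or under 0.6248 CPM in every library. Zbtb46 stood at 1.23 to 8.57 CPM in Atg5-deficient against 1.51 to 3.76 CPM in wild-type libraries, H2-Ab1 at 6.33 to 20.1 against 5.25 to 11.3 CPM and H2-Aa at 3.49 to 15.7 against 3.07 to 7.66 CPM. Within genotype the dendritic cell sum had r = 0.68 with Foxp3 (p = 0.0363, adjusted p = 0.236, exact permutation) and the erythroid sum, at 2.08 to 11.3 against 3.19 to 13.3 CPM, r = 0.72 (p = 0.0199, adjusted p = 0.236, exact permutation). The part of either in the result was not tested. Macrophages, which also express Capg, had summed markers of 5.73 to 21.1 CPM against 10.9 to 15.6 CPM, and CD8 T cells, which can express Itgae, 4.10 to 6.33 CPM against 4.48 to 6.55 CPM. Platelets, which carry GARP, had 2.17 to 9.54 CPM against 4.19 to 6.63 CPM. Hepatocyte markers varied most, from 73.7 to 1283 CPM in Atg5-deficient and from 53.9 to 735 CPM in wild-type libraries. With that sum as a covariate the same 4 members were called, with a log2 fold change of 0.80 for Foxp3 (edgeR, adjusted p = 0.0128).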

How the data were processed

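RNA-seq of 11 libraries was deposited by the authors as raw counts of reads per Ensembl gene, for which the submitters' processing notes name STAR, featureCounts and GRCm38. The sources used here give no versions, annotation release or strand setting. Of 56748 identifiers, 52125 matched GENCODE M21, and 0 columns of other samples were present. Genes were filtered with filterByExpr (minimum count 10, total 15), scaled by TMM and tested by edgeR 4.0.16 (R 4.3.3; limma 3.58.1, DESeq2 1.42.0), adjusted by Benjamini-Hochberg, threshold 0.05. The common biological coefficient of variation was 0.341. Ratios to Foxp3 used counts plus 0.5 and an exact permutation of genotype (462 arrangements). Correlations used log2 CPM with a prior count of 2, deviations from genotype means and all 86400 orders within genotype, two-sided. These 2 tests had been planned with adjustment over 9 members; adjustment over all genes replaced it, since the members and lists were chosen with earlier results of these data known. Marker sums used CPM by total counts. Intervals of ratios invert the permutation test. The edgeR tests of genotype and of the Foxp3 coefficient were checked on simulated counts, and the permutation tests were not. Genes named are the members, up to 4 others per list with the smallest p or family paralogs of members, the 8 most like Foxp3 and the main marker of a cell list. The dendritic cell markers other than Cd74 and the genes overlapping members were named after their values were seen. Alternatives were other scalings, DESeq2, limma-voom, other filters, pseudocounts of 1 and 5, a prior count of 0.5, fewer libraries and, added after seeing the data, covariates and subtraction of overlapping genes.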

Additional observations from a re-analysis of the deposited data

How the results depend on the processing

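No paired analysis was possible because replicate numbers were given in accession order and pair nothing. With 6 and 5 libraries and p-values near the threshold, calls of single members depend on the tool. DESeq2 called 9 members and 2333 genes (1394 higher, 939 lower), limma-voom with quality weights 8 members and 3382 genes (1941 higher, 1441 lower). The main fit called 4 members and 1231 genes. With upper-quartile factors 685 genes were lower (46.0% of called genes were higher, against 64.7%). Scaling to pan-T cell genes called 2 members, 300 higher and 875 lower genes (25.5% higher) and turned Izumo1r to -0.018 and the r of Capg to -0.034. The 8 libraries with consecutive titles gave 0 members and 176 genes (87 higher, 89 lower), 0 passing ratios, 2 members with an r under the threshold, 0.020 for the ratio of Ikzf2 and r = 0.12 for Itgae. For the ratios, 5 against 3 libraries allow no exact permutation p under 0.0179 before adjustment, which leaves little room to pass. The cell cycle covariate left 0 members and 390 genes (262 higher, 128 lower), with -0.20 for Izumo1r and -0.064 for Capg. Without a low-count filter Itgae (adjusted p = 0.0638, edgeR) and Capg (adjusted p = 0.172, edgeR) were not called and Gpr83 was (adjusted p = 0.0231, edgeR). The Foxp3 coefficient of Itgae turned to -0.066 with upper-quartile factors, where 2 genes were called for genotype at a given Foxp3 level, and to -0.021 with the strict filter.

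Leaving out 1 library gave 642 to 2143 called genes (402 to 1410 higher, 191 to 733 lower), the most without Atg5-deficient 3, and 2 to 6 called members, 1 to 2 passing ratios and 2 to 5 members with an r under the threshold. Genes called for genotype at a given Foxp3 level ranged from 1 to 28, and for Foxp3 from 0 to 0. Signs turned in some of these fits for the ratios of Capg (-0.16 to 0.13), Ctla4 (-0.062 to 0.23) and Ikzf2 (-0.095 to 0.046), for the r of Capg (-0.085 to 0.49), Gpr83 (-0.014 to 0.53) and Itgae (-0.25 to 0.25), and for the Foxp3 coefficients of Capg (-0.039 to 0.62), Gpr83 (-0.033 to 0.92), Itgae (-0.32 to 0.28) and Izumo1r (-0.42 to 0.015). The cause of these changes was not tested. Over all alternatives, 591 values kept their direction and side of the threshold or stayed within the spread, 58 moved further, 53 lost and 21 gained the threshold and 28 changed sign. Depth limits Gpr83 most, with 139 counts in its lowest library.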
